A study of Mus musculus with 32 samples.

Results

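Cells with monocyte genes and little C1q were examined in the stromal vascular fraction of epididymal fat, by single-cell RNA sequencing of 3′ transcript ends. A cell was a member when it held at least 5 UMIs (unique molecular identifiers, 1 for each captured RNA molecule) of Lyz2, fewer than 5 of C1qa, C1qb and C1qc together, fewer than 20 of Retnla, fewer than 3 of Cd209a and Clec10a together, and fewer than 20 of S100a8 and S100a9 together. It also needed either at least 5 UMIs summed over Plac8, Ly6c2 and Chil3, or at least 3 summed over Ace, Treml4 and Cd300e. The rule picked 823 of the 19564 cells kept, and they are called C1q-low monocytes. They were chosen by the raw UMI counts of these 15 genes, so the levels of the 15 genes are given as a description only. Members reaching the Ace sum are called Ace-sum members, whether or not they also reached the Plac8 sum, and the others Plac8-sum members.

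All mice were C57BL/6 and had 16 weeks of diet followed by 7 days of diphtheria toxin. The 4 groups were CD169-DTR mice on normal diet, WT mice on normal diet, CD169-DTR mice on high fat diet and WT mice on high fat diet. CD169 is the product of Siglec1, and in CD169-DTR mice the diphtheria toxin receptor is expressed from that locus, so that toxin kills CD169-expressing macrophages; the toxin was given to the WT mice too. Sorted CD45+ and CD45- cells were mixed 1:1, and the sort left out most F4/80hi cells and Ly6Chi monocytes, so the abundance of monocytes here is that of the cells which passed this gate. Each group is 1 library, so no difference between groups has a replicate check and none was tested. The number of mice behind each library is not stated.

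Monocytes are circulating myeloid cells that enter tissues. In mice the classical subset carries high Ly6C and the chemokine receptor Ccr2, leaves the bone marrow in response to Ccl2 and Ccl7, and can become macrophages after entering a tissue. The nonclassical subset arises from classical cells under the transcription factor Nr4a1, carries Cx3cr1, Spn (CD43) and Ace, and patrols the inner face of vessels. In obese fat, monocytes that enter by Ccr2 are a known source of macrophages.

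The libraries held between 33390225 and 64766718 UMIs over all barcodes. Members had median depths of 7541 UMIs on normal diet in DTR-labelled cells and 5580 in WT-labelled cells, and on high fat diet 5582 in DTR-labelled and 6782 in WT-labelled cells. Each barcode ends in a number, and libraries were assigned to these numbers in the sequence of the submitters' aggregation list. Siglec1, the gene of CD169, was higher in the DTR-labelled libraries, which goes against these labels if CD169-expressing cells were depleted: over all barcodes it had 117 UMIs in the DTR-labelled and 5 in the WT-labelled normal diet library, and 197 in the DTR-labelled and 53 in the WT-labelled high fat diet library. Members held 18 Siglec1 UMIs in the DTR-labelled and 0 in the WT-labelled normal diet library, and 19 and 0 in the DTR-labelled and WT-labelled high fat diet libraries. The gene therefore does not back the labels, and every direction between genotypes below is between libraries as labelled. 1 barcode sequence was shared by members of different libraries.

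Marker genes that the rule did not use were read as a description of the members. The levels of Csf1r are given for members only, so they do not test the name given to these cells. Members held RNA of monocyte genes such as Csf1r, the receptor for the growth factor that sustains monocytes, at 378 CPM (UMIs per 1000000 UMIs of the members of a library) in DTR-labelled and 377 in WT-labelled cells on normal diet, and at 365 in DTR-labelled and 375 in WT-labelled cells on high fat diet. RNA of other cell types was present too. A set of marker panels chosen after the members were seen found other-type RNA in 226 members (27.5%), most often of dendritic cells (165 members), then fibroblasts (48), B or plasma cells (35) and T or NK cells (35). The share was 24.8% in DTR-labelled and 39.3% in WT-labelled members on normal diet, and 22.9% in DTR-labelled and 36.8% in WT-labelled members on high fat diet. The 165 members with dendritic RNA had a median of 12532 UMIs, against 6392 over all members. The remaining 597 members are called filtered members, and values are given with and without this filter where it matters. Their summed dendritic markers still reached between 486 and 811 CPM, and B cell markers between 93.6 and 291 CPM. Other RNA remained unevenly: Col1a1, of the fibroblast panel, held 11 UMIs on normal and 93 on high fat diet in filtered DTR-labelled members. Gzma, which is on none of the panels, held 142 and 0 UMIs in the same order. Whether what remained comes from doublets or free RNA was not tested.

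With every other condition met, 15 cells had exactly 5 Lyz2 UMIs and 20 had 4. Among cells that did not reach the Ace sum, the sum of Plac8, Ly6c2 and Chil3 was 5 in 47 cells and 4 in 46. Among cells that did not reach the Plac8 sum, the sum of Ace, Treml4 and Cd300e was 3 in 26 cells, 4 in 26 and 5 in 22, against 2 in 44 cells outside the limit, so many of the 121 members picked by the Ace sum alone lay close to it. The C1q sum was 4 in 10 cells inside the limit and 5 in 13 outside it, so the limit on C1q passed through a thin part of the distribution.

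C1q-low monocytes made up a larger share of the immune cells in both DTR-labelled libraries. On normal diet they were 14.3% of immune cells (12.7 to 15.9) in the DTR-labelled library and 3.78% (3.08 to 4.58) in the WT-labelled library, a log2 ratio of 1.92 (1.58 to 2.27). On high fat diet the shares were 11.7% (10.5 to 13) and 3.46% (2.81 to 4.22) in the DTR-labelled and WT-labelled libraries, a log2 ratio of 1.76 (1.42 to 2.10). Intervals are exact 95% intervals and here and below cover counting error only, not the variation between mice. Leaving out every member with 3 UMIs of other lineages, a stricter limit whose lists hold some genes that monocytes can express, gave log2 ratios of 1.23 and 0.79. Diet moved the share far less: the log2 ratio of high fat to normal diet was −0.29 (−0.53 to −0.05) in DTR-labelled and −0.13 (−0.55 to 0.30) in WT-labelled libraries. All shares come after the sort that left out most Ly6Chi monocytes and F4/80hi cells, so a share can also move with what the gate removed, which was not tested.

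**Figure D1:**
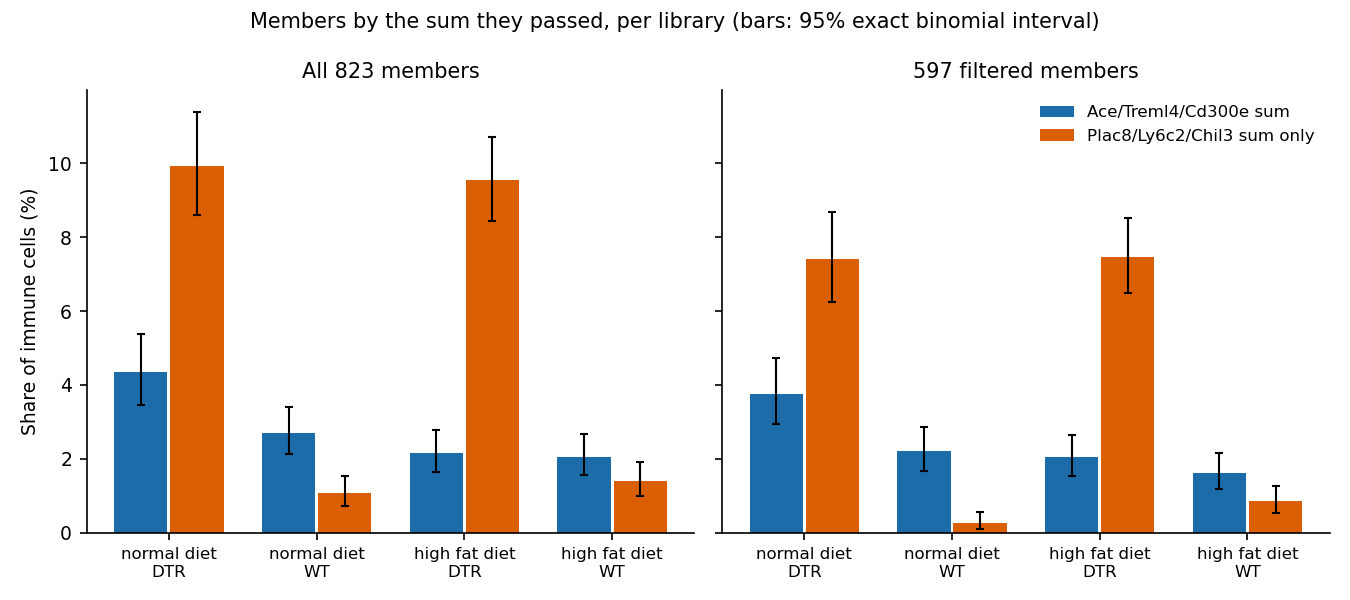
Bars give Ace-sum members (blue) and Plac8-sum members (orange) as a percentage of the immune cells of each library, for all 823 members on the left and the 597 filtered members on the right, with exact 95% binomial intervals (counting error only, 1 library per group). Orange bars reach 9.92% and 9.54% in the DTR-labelled libraries on normal and high fat diet, against 1.07% and 1.4% in the WT-labelled libraries.

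The ratio was larger for Plac8-sum members. They were 9.92% of immune cells in the DTR-labelled and 1.07% in the WT-labelled normal diet library (log2 ratio 3.22, 2.64 to 3.84), and 9.54% in the DTR-labelled and 1.4% in the WT-labelled high fat diet library (2.77, 2.27 to 3.30). After the filter these log2 ratios were 4.79 and 3.14, and only 7 such cells were left in the WT-labelled normal diet library. Ace-sum members were 4.34% in the DTR-labelled and 2.71% in the WT-labelled normal diet library (0.68, 0.20 to 1.16), but 2.15% and 2.06% in the DTR-labelled and WT-labelled high fat diet libraries (0.06, −0.49 to 0.62). Within the DTR-labelled libraries Ace-sum members fell to 2.15% on high fat diet, against 4.34% on normal diet (−1.01, −1.53 to −0.51).

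The makeup of the members differed too. Ace-sum members were 31.3% of members (25.9 to 37.1) in the DTR-labelled and 72.9% (63.4 to 81) in the WT-labelled normal diet library. On high fat diet they were 19.3% (15.2 to 23.9) in the DTR-labelled and 64.2% (54.3 to 73.2) in the WT-labelled library. Many Ace-sum members also reached the Plac8 sum: 73 of 87 in the DTR-labelled and 38 of 78 in the WT-labelled normal diet library, and 39 of 64 and 26 of 68 in the DTR-labelled and WT-labelled high fat diet libraries. Any value averaged over members therefore weighs the 2 kinds differently in DTR-labelled and WT-labelled libraries, and gene results are given for each kind as well. The genes of the rule follow the same split, as the rule makes them: Ly6c2 was at 251 CPM in DTR-labelled and 54.7 in WT-labelled members on normal diet, and Ace at 116 in DTR-labelled and 312 in WT-labelled members.

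The 2 kinds of member were set against each other within each library that kept at least 20 filtered members of both kinds, which were both DTR-labelled libraries and the WT-labelled high fat diet library. Of 2449 genes with at least 20 UMIs over both kinds in each of the 3, 74 (3.02%) were at least 2-fold higher in Ace-sum members in every library and 22 (0.898%) at least 2-fold lower. Cells of the 2 kinds come from the same libraries, and the rule separated them by related genes, so this is a description. 12 of 25 measured nonclassical monocyte genes that the rule did not use were among the 74.

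Spn, the CD43 sialoglycoprotein of patrolling monocytes, stood at 208 CPM in Ace-sum and 11.7 in Plac8-sum members of the DTR-labelled normal diet library. It was at 237 and 18.5 CPM in Ace-sum and Plac8-sum members of the DTR-labelled high fat diet library and at 421 and 21.6 CPM in those of the WT-labelled high fat diet library. Pglyrp1, a peptidoglycan-binding antibacterial protein, had 139, 227 and 467 CPM in Ace-sum members, against 13.7, 9.68 and 28.8 CPM in Plac8-sum members, in the same order of libraries. Itgal, the alpha chain of the adhesion receptor LFA-1, and Pou2f2, a lymphoid and myeloid transcription factor, were higher in Ace-sum members by log2 ratios of 2.34 to 3.02 and 2.37 to 2.87. Eno3, an enolase of glycolysis, and Slc12a2, a sodium, potassium and chloride cotransporter, belonged to the same group.

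Plac8-sum members carried more RNA of the monocyte-attracting chemokines Ccl2 and Ccl7. Ccl2, a ligand of Ccr2, was at 159 CPM in Ace-sum and 951 in Plac8-sum members of the DTR-labelled normal diet library, at 172 and 1763 CPM in those of the DTR-labelled high fat diet library, and at 25.4 and 742 CPM in those of the WT-labelled high fat diet library. Lpl, the lipase that frees fatty acids from circulating triglycerides, was lower in Ace-sum members by log2 ratios between −2.21 and −1.82. Hilpda, which inhibits the breakdown of stored triglycerides, C3ar1, the receptor of complement fragment C3a, and S100a10, a partner of annexin A2, were also lower in Ace-sum members in every library compared. Of the chemokine genes measured 3 of 10 were lower in Ace-sum members, against 0.898% of all genes. Of complement and coagulation genes 3 of 9 were lower, including F13a1, a clotting factor subunit of classical monocytes. Classical monocyte genes that the rule did not use had only 2 of 15 lower and 1 higher in Ace-sum members, against 0.898% and 3.02% of all genes. Of 19 lipid handling genes 2 were lower and 1 higher in Ace-sum members, against 0.898% and 3.02% of all genes. Over all members, with only Ace-sum members that did not reach the Plac8 sum, 3 of 17 were higher and none lower in every library but the DTR-labelled normal diet one, which held too few. In that comparison 4.63% of all genes were higher and 0.85% lower. It was made without the filter, and 8 of 9 fibroblast marker genes were higher in it too.

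**Figure D2:**
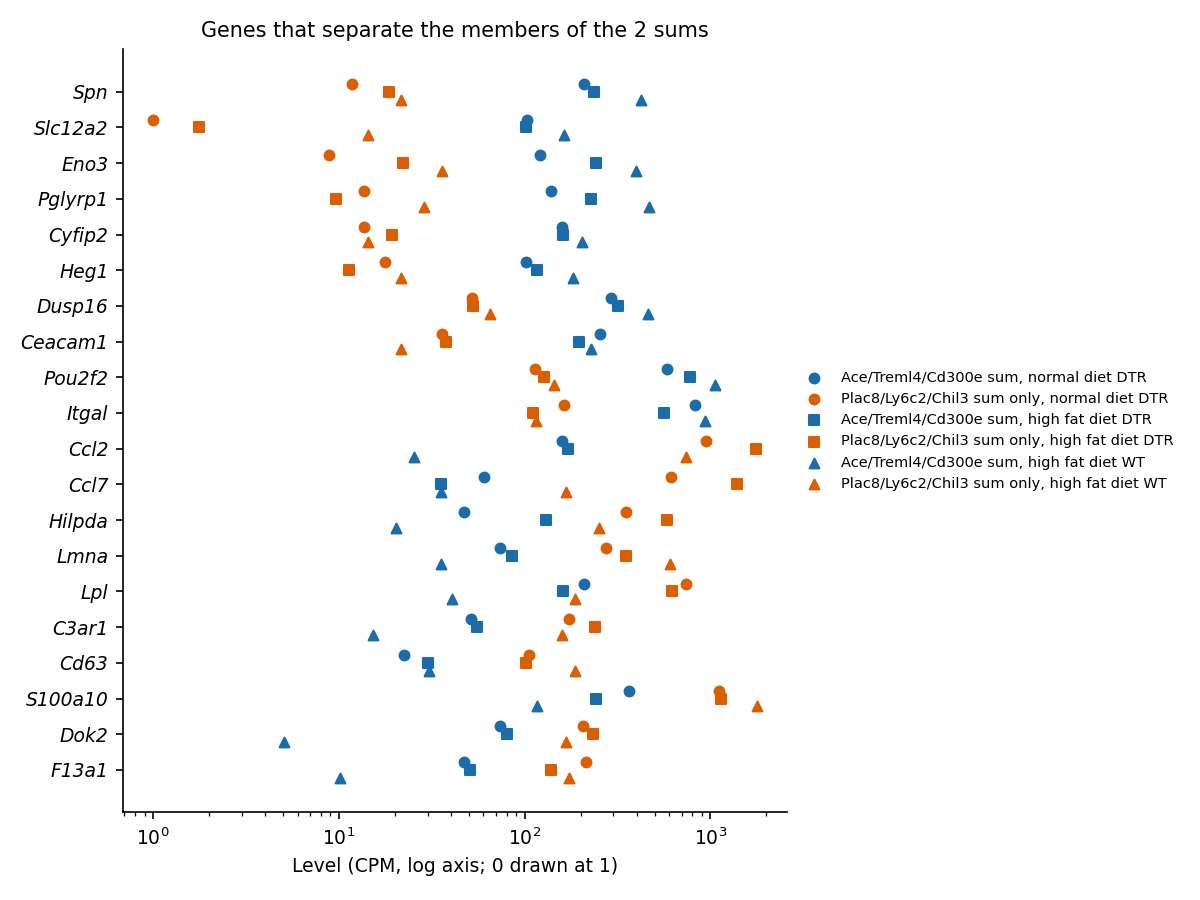
Levels in CPM on a logarithmic axis (0 drawn at 1) of the 10 genes on either side with the largest ratio in their smallest library, in filtered Ace-sum members (blue) and Plac8-sum members (orange); each marker shape is 1 of the 3 libraries with at least 20 filtered members of both kinds. Blue points lie right of the orange points of the same library from Spn to Itgal, and left of them from Ccl2 to F13a1.

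Between genotypes, 656 of 5963 genes measured over all members (11%) differed at least 2-fold on normal diet, with 421 (7.06%) higher and 235 (3.94%) lower in the DTR-labelled library. On high fat diet 812 of 6306 (12.9%) did, with 576 (9.13%) higher and 236 (3.74%) lower. A gene was measured with at least 50 UMIs over the pair of libraries. Of 5708 genes measured in both diets, 188 were higher in both, which is 49.2% of those higher on normal diet and 40.9% of those higher on high fat diet. The share of other-type RNA moved with the same comparisons, and in filtered members 17.1% and 14.4% of genes differed at least 2-fold on normal and high fat diet. 

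Genes induced by type I interferon stood higher in DTR-labelled members. On normal diet 35 of 39 measured interferon response genes were at least 2-fold higher and none lower, against 7.06% higher over all genes; the list median was a log2 ratio of 2.53, against 0.03 over all genes. On high fat diet 26 of 35 were at least 2-fold higher and none lower, against 9.13% of all genes, with a median of 1.47 against 0.18. In filtered members 29 of 36 were higher on normal diet (median 2.03, 10.7% of all genes) and 19 of 33 on high fat diet (median 1.07, 9.61% of all genes). Under the stricter limit on other lineages, which also removes cells by the interferon-induced gene Bst2, the medians were 0.94 and 0.42. Interferon response genes encode antiviral proteins and are switched on together through the factor ISGF3, which binds a short repeat of GAAA in their promoters.

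That repeat was searched for in the promoters of the list, and the promoters of 3 named genes are shown because they hold it and their levels are described next. The sequences are RefSeq promoters of build GRCm38.p6, the 250 bases before each gene's start, read 5′ to 3′ along the gene. Capitals mark each match to GAAA, any 2 bases and GAAA, or to its reverse complement TTTC, any 2 bases and TTTC, and overlapping matches are joined. Ifit3 (chr19:34583279-34583528, plus strand) has 2 matches, Isg15 (chr4:156200819-156201068, minus strand) has 3 overlapping matches and Rsad2 (chr12:26456453-26456702, minus strand) has 1.
Ifit3 promoter: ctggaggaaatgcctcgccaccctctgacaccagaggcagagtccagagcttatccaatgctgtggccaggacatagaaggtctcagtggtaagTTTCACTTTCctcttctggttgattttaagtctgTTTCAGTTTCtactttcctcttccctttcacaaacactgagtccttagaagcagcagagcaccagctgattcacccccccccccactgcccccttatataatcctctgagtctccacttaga
Isg15 promoter: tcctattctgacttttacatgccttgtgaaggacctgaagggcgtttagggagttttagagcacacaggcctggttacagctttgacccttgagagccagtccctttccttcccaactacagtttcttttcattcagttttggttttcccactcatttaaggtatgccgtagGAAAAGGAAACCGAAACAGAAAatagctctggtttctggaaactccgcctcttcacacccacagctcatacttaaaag
Rsad2 promoter: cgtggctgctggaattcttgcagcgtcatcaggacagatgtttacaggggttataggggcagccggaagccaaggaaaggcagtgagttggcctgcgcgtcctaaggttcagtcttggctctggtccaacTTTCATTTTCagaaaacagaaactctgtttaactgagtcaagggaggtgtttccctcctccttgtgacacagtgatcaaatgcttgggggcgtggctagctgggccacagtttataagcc
17 of the 34 list genes found in the promoter table (50%) held a match on either strand, against 936 of all 27025 genes (3.46%). A match describes these letters and is not shown to be bound in these cells.

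Isg15, a ubiquitin-like protein that is joined to other proteins after interferon, was at 591 CPM in DTR-labelled and 57.1 in WT-labelled members on normal diet, and at 378 in DTR-labelled and 89.6 in WT-labelled members on high fat diet. Its log2 ratios were 3.37 (2.95 to 3.82) and 2.08 (1.75 to 2.41). Ifit3, which binds foreign RNA together with Ifit1, had 104 CPM in DTR-labelled and 2.43 in WT-labelled members on normal diet (5.42, 3.55 to 8.47), and 66.8 in DTR-labelled and 6.33 in WT-labelled members on high fat diet (3.40, 2.24 to 4.87). Both genes were higher in each DTR-labelled library than in either WT-labelled library. Rsad2, the antiviral enzyme viperin, was at 240 CPM in DTR-labelled and 13.4 in WT-labelled members on normal diet (4.17), and at 123 and 12.7 CPM in DTR-labelled and WT-labelled members on high fat diet (3.28).

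The 2 kinds of member differed in this. In filtered Ace-sum members on normal diet 19 of 21 interferon genes were at least 2-fold higher in the DTR-labelled library (median 1.87, 7.02% of all genes), with Isg15 at 523 CPM in DTR-labelled and 28.1 in WT-labelled cells. On high fat diet only 1 of 9 measured in these members was (median 0.41, 3.27% of all genes). Isg15 was at 202 CPM in DTR-labelled and 167 in WT-labelled cells there (0.27, −0.43 to 0.98), and 1 WT-labelled cell held 57.6% of the WT-labelled UMIs. All Isg15 UMIs of filtered Ace-sum members on normal diet were in cells that also reached the Plac8 sum. These were 234 UMIs in 64 DTR-labelled and 7 in 34 WT-labelled cells, and the other 6 and 24 cells held none. In filtered Plac8-sum members the order of the diets was the other way round. There 26 of 32 interferon genes were higher on high fat diet (median 1.50, 12.7% of all genes). On normal diet 13 of 33 were (median 0.73, 16.8% of all genes), where the WT-labelled library had only 7 cells. Rsad2 followed this, with 346 CPM in DTR-labelled and 12.1 in WT-labelled Ace-sum members on normal diet, but 25.2 and 40.6 CPM in DTR-labelled and WT-labelled Ace-sum members on high fat diet. Whether the diets differ in this was not tested.

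**Figure D3:**
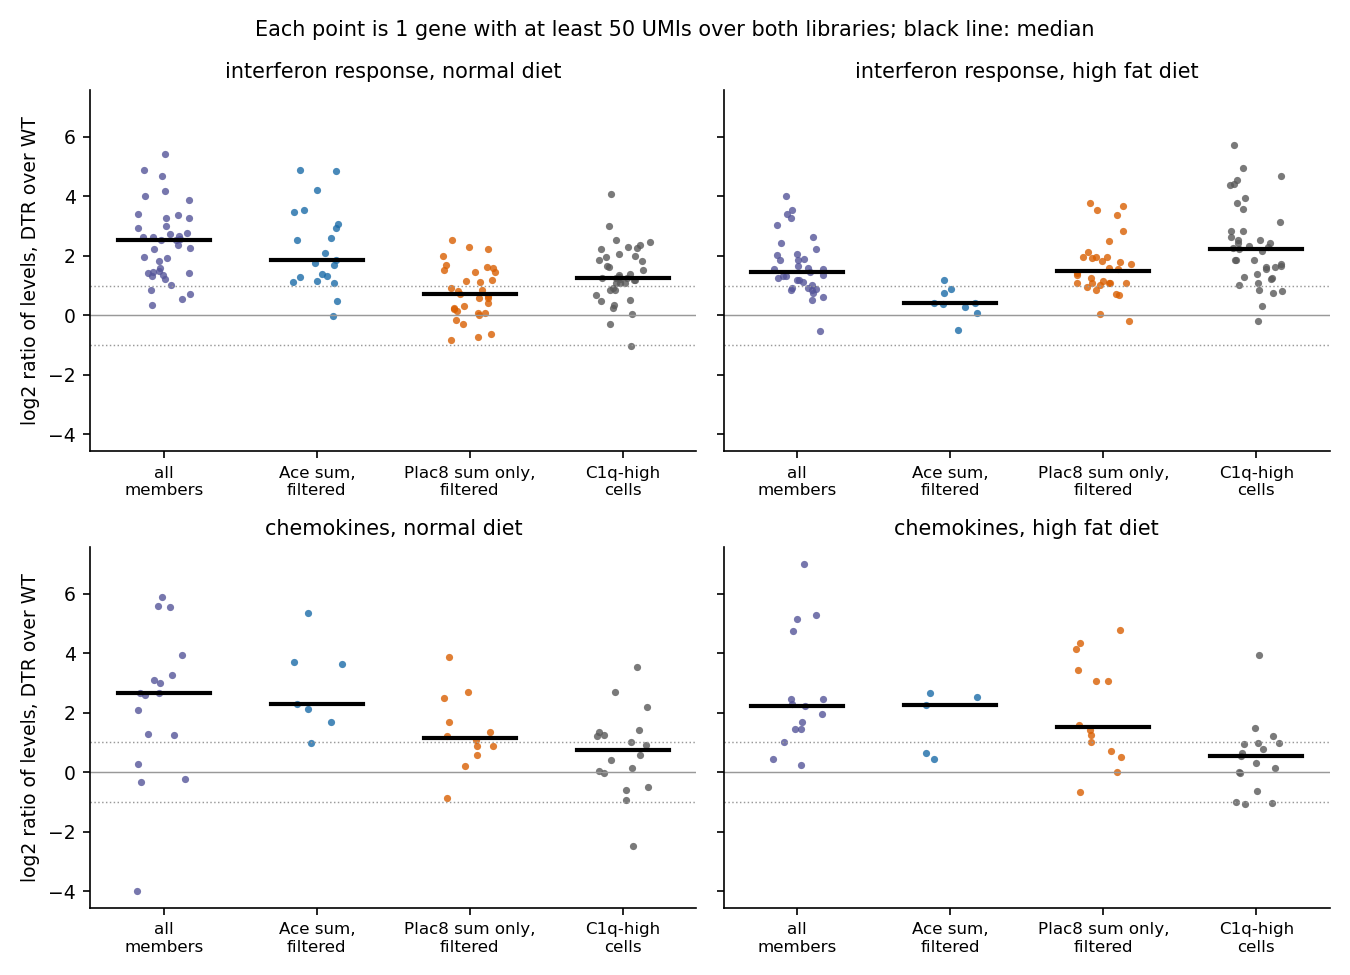
Log2 ratio of DTR-labelled over WT-labelled cells on each diet, 1 point per gene of the interferon response and chemokine lists with at least 50 UMIs over both libraries, with the median as a black line and 2-fold as dotted lines. The interferon medians of filtered Ace-sum members are 1.87 on normal and 0.41 on high fat diet, and those of filtered Plac8-sum members 0.73 on normal and 1.50 on high fat diet; a gene with 0 UMIs in a library is drawn at its bound against 3 UMIs.

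The higher interferon signal was not found in C1q-low monocytes alone. Phagocytes meeting the same limits but with at least 5 C1q UMIs (955 cells) had 28 of 39 interferon genes at least 2-fold higher in the DTR-labelled library on normal diet (median 1.27, 15% of all genes) and 36 of 41 on high fat diet (median 2.22, 10.6% of all genes). Isg15 was at 557 CPM in DTR-labelled and 247 in WT-labelled non-immune cells on normal diet, and at 443 in DTR-labelled and 76.3 in WT-labelled non-immune cells on high fat diet. The difference between these cell types and C1q-low monocytes was not tested.

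Chemokine genes also stood higher in DTR-labelled members. On normal diet 13 of 17 measured chemokine genes were at least 2-fold higher in DTR-labelled members and 1 lower (median 2.66), against 7.06% higher and 3.94% lower over all genes. Of 15 measured on high fat diet, 13 were higher and none lower (median 2.22), against 9.13% higher over all genes. In filtered members 15 of 15 were higher on normal diet (median 2.86, 10.7% of all genes) and 12 of 14 on high fat diet (median 1.79, 9.61% of all genes), with none lower. Ace-sum members made up 33.5% of filtered DTR-labelled and 89.2% of filtered WT-labelled members on normal diet. On high fat diet the shares were 21.5% and 65.7%, so these counts weigh the 2 kinds differently.

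Ccl2 was at 652 CPM in DTR-labelled and 267 in WT-labelled members on normal diet (1.29, 1.08 to 1.50), and at 1473 in DTR-labelled and 267 in WT-labelled members on high fat diet (2.46, 2.28 to 2.65). In the WT-labelled normal diet library 50.9% of the Ccl2 UMIs were in 1 cell, and in filtered members the level was 710 CPM in DTR-labelled and 77.8 in WT-labelled cells (3.19). Over all Ace-sum members, without the filter, the normal diet log2 ratio of Ccl2 turned to −1.28. Ccl7, another Ccr2 ligand, was at 568 CPM in DTR-labelled and 89.9 in WT-labelled members on normal diet (2.66), and at 1232 in DTR-labelled and 453 in WT-labelled members on high fat diet (1.44). In filtered Ace-sum members the high fat diet log2 ratio of Ccl7 was −0.01. Ccl2 and Ccl7 lie next to each other on chromosome 11, with Ccl12 close by, and these are the monocyte-attracting genes of the mouse cluster. Ccl12, a mouse-specific Ccr2 ligand, held 173 UMIs in DTR-labelled and 1 in WT-labelled members on normal diet (5.89, 3.39 to 11.20), and 929 in DTR-labelled and 0 in WT-labelled members on high fat diet, at least a log2 ratio of 7.01 against a floor of 3 UMIs in that library.

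Cxcl2, which recruits neutrophils through Cxcr2, was at 1715 CPM in DTR-labelled and 215 in WT-labelled members on normal diet (3.00, 2.78 to 3.22), and at 3368 in DTR-labelled and 616 in WT-labelled members on high fat diet (2.45, 2.33 to 2.58). In filtered Ace-sum members the ratios were 3.71 and 2.27. In filtered Plac8-sum members they were 0.19 and 0.71, with 2430 CPM in DTR-labelled and 2124 in WT-labelled cells on normal diet, and 4946 and 3017 CPM in DTR-labelled and WT-labelled cells on high fat diet. 1 of the 7 WT-labelled cells held 86 of the 100 normal diet UMIs, so that ratio rests on 1 cell, and 1 of 23 held 43.4% of those on high fat diet. The difference between the kinds of member was not tested. Ccl4 and Ccl3, chemokines of activated phagocytes, were higher too: Ccl4 had 337 CPM in DTR-labelled and 53.5 in WT-labelled members on normal diet (2.66), and 485 in DTR-labelled and 151 in WT-labelled members on high fat diet (1.68), and Ccl3 had log2 ratios of 3.94 and 2.22, the second of which turned to −0.48 under the stricter limit on other lineages. Cxcl10, an interferon-induced ligand of Cxcr3, was at 343 CPM in DTR-labelled and 57.1 in WT-labelled members on normal diet (2.58), and at 168 in DTR-labelled and 61.2 in WT-labelled members on high fat diet (1.46), but in filtered Ace-sum members on high fat diet it was at 50.5 CPM in DTR-labelled and 198 in WT-labelled cells (−1.97). Under the stricter limit on other lineages Cxcl10 also turned, to −1.16 on normal and −3.39 on high fat diet.

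**Figure D4:**
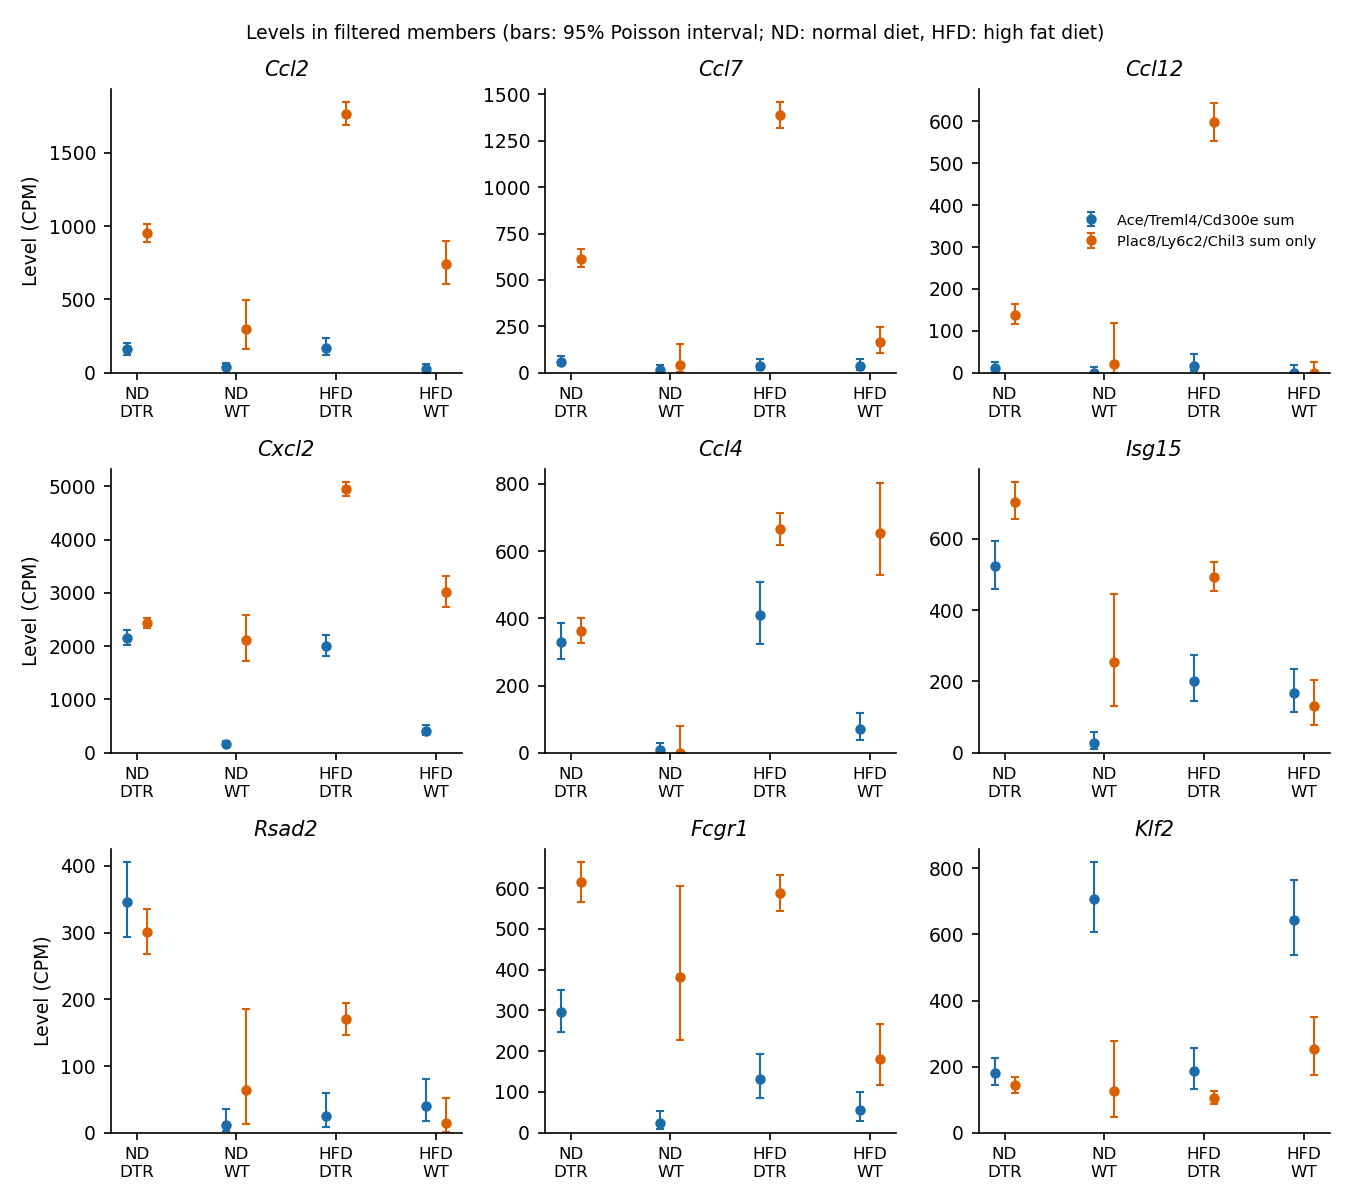
Levels in CPM of 9 named genes in each library, in filtered Ace-sum members (blue) and filtered Plac8-sum members (orange), with exact 95% Poisson intervals (counting error only). The orange points for Ccl2, Ccl7 and Ccl12 are highest in the DTR-labelled high fat diet library, and the blue points for Klf2 are at 708 and 644 CPM in the WT-labelled libraries, above the 181 and 187 CPM of the DTR-labelled libraries.

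Nonclassical monocyte genes that the rule did not use were lower in DTR-labelled members. Of 26 measured, 9 were at least 2-fold lower on normal diet and 8 on high fat diet and none higher (medians −0.68 and −0.62), against 3.94% and 3.74% of all genes lower. In filtered members 18 of 25 were lower on normal diet (median −1.47, 6.39% of all genes) and 16 of 25 on high fat diet (median −1.20, 4.77% of all genes). Among filtered Ace-sum members only, 9 of 24 were still at least 2-fold lower on normal diet and 3 of 24 on high fat diet (medians −0.81 and −0.51), against 3.68% and 2.09% of all genes.

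Spn was at 59.5 CPM in DTR-labelled and 210 in WT-labelled members on normal diet (−1.82), and at 35.1 in DTR-labelled and 122 in WT-labelled members on high fat diet (−1.80). In filtered Ace-sum members it was at 208 CPM in DTR-labelled and 539 in WT-labelled cells on normal diet (−1.37, −1.77 to −0.98), and at 237 and 421 CPM in DTR-labelled and WT-labelled cells on high fat diet (−0.83, −1.38 to −0.29). Klf2, a transcription factor that holds myeloid and endothelial cells in a quiet state, was at 181 CPM in DTR-labelled and 708 in WT-labelled Ace-sum members on normal diet (−1.97), and at 187 and 644 CPM in DTR-labelled and WT-labelled Ace-sum members on high fat diet (−1.79). Pglyrp1 and Eno3 were also lower in these cells on normal diet, by log2 ratios of −1.79 and −2.09. Nr4a1 and Cx3cr1 did not reach 2-fold in Ace-sum members: their log2 ratios were −0.87 and −0.76 on normal diet, and −0.50 and −0.56 on high fat diet.

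Classical monocyte genes moved the other way. 14 of 21 measured were at least 2-fold higher in DTR-labelled members on normal diet and 1 lower (median 1.28), against 7.06% higher and 3.94% lower over all genes. Of 20 measured on high fat diet, 10 were higher and none lower (median 1.01), against 9.13% higher over all genes; Ifitm3 and Ms4a4c stand on both this list and the interferon list. Ccr2 was at 395 CPM in DTR-labelled and 131 in WT-labelled members on normal diet (1.59), and at 423 in DTR-labelled and 213 in WT-labelled members on high fat diet (0.99). Within filtered Plac8-sum members Ccr2 was nearly level, with 598 CPM in DTR-labelled and 658 in WT-labelled cells on normal diet and 596 and 641 CPM in DTR-labelled and WT-labelled cells on high fat diet, and the medians of the whole list were 0.09 and 0.01. Within filtered Ace-sum members Ccr2 was at 306 CPM in DTR-labelled and 32.2 in WT-labelled cells on normal diet (3.25, 2.23 to 4.49), and at 277 and 101 CPM in DTR-labelled and WT-labelled cells on high fat diet (1.45, 0.69 to 2.27). DTR-labelled Ace-sum members thus held more Ccr2 RNA, and less Spn and Klf2 RNA, than WT-labelled Ace-sum members on both diets. Among the filtered Ace-sum members, 64 of 70 DTR-labelled and 34 of 58 WT-labelled cells on normal diet also reached the Plac8 sum, and 33 of 55 and 20 of 44 DTR-labelled and WT-labelled cells on high fat diet. Within those that reached both sums the log2 ratios on normal and high fat diet were 2.83 and 0.78 for Ccr2, −1.17 and −0.94 for Spn and −1.94 and −1.76 for Klf2, so Ccr2 on high fat diet and Spn on high fat diet stayed under 2-fold there. Fn1, fibronectin, was at 780 CPM in DTR-labelled and 177 in WT-labelled members on normal diet (2.14), and at 1080 and 652 CPM in DTR-labelled and WT-labelled members on high fat diet (0.73).

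Macrophage differentiation genes were higher as well. Of 14 measured, 8 were at least 2-fold higher and 1 lower in DTR-labelled members on each diet (medians 1.46 and 1.58), against 7.06% higher and 3.94% lower over all genes on normal diet and 9.13% and 3.74% on high fat diet. In filtered Ace-sum members 4 of 9 were higher on normal diet and none lower (median 0.34), against 7.02% higher and 3.68% lower over all genes. On high fat diet none of 6 was higher and 1 was lower in them (median −0.13), against 3.27% higher and 2.09% lower over all genes. Fcgr1, the high-affinity IgG receptor CD64 and a marker of macrophage fate, was at 416 CPM in DTR-labelled and 37.7 in WT-labelled members on normal diet (3.46, 2.95 to 4.03), and at 385 in DTR-labelled and 43.2 in WT-labelled members on high fat diet (3.16, 2.70 to 3.64). Arg1, an arginase of alternatively activated macrophages, held 44 UMIs in DTR-labelled and 0 in WT-labelled members on normal diet, and 294 in DTR-labelled and 9 in WT-labelled members on high fat diet (3.77, 2.82 to 4.91); filtered Ace-sum members held none in any library. Pf4, a platelet chemokine that macrophages also make, held 85 UMIs in DTR-labelled and 0 in WT-labelled members on normal diet, and 341 and 4 UMIs in DTR-labelled and WT-labelled members on high fat diet. Fabp5, a fatty acid carrier, was at 310 CPM in DTR-labelled and 85.1 in WT-labelled members on normal diet (1.86), and at 579 and 84.4 CPM in DTR-labelled and WT-labelled members on high fat diet (2.78). Over the lipid handling list, 8 of 23 genes were higher and 2 lower on normal diet, and 8 of 22 higher and 3 lower on high fat diet, against the same shares of all genes (7.06% and 3.94%, then 9.13% and 3.74%).

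MHC class II genes did not pass 2-fold in most comparisons. Over all members 1 of 10 was at least 2-fold lower in DTR-labelled cells on normal diet and none of 10 on high fat diet (medians −0.40 and −0.42). Of all genes 3.94% and 3.74% were lower on normal and high fat diet. In filtered Plac8-sum members on high fat diet 4 of 7 were lower (median −1.41, 2.47% of all genes). There, Cd74, the class II invariant chain, was at 8397 CPM in DTR-labelled and 22276 in WT-labelled cells (−1.41, −1.47 to −1.35), and H2-Ab1, a class II beta chain, at 2268 and 7005 CPM in DTR-labelled and WT-labelled cells (−1.63). The WT-labelled side of that comparison is 23 cells. On high fat diet dendritic markers summed to 486 CPM in DTR-labelled and 568 CPM in WT-labelled filtered members of both kinds together. These sums are not those of the Plac8-sum members compared, and the part of dendritic RNA in the class II difference was not tested.

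Inflammatory cytokine genes were mixed. On normal diet 9 of 23 were at least 2-fold higher and 2 lower in DTR-labelled members, and on high fat diet 6 of 22 were higher and none lower. Over all genes 7.06% were higher and 3.94% lower on normal diet, and 9.13% higher on high fat diet. Il1b, the cytokine interleukin 1 beta, was at 3523 CPM in DTR-labelled and 1796 in WT-labelled members on normal diet (0.97), and at 3112 and 2380 CPM in DTR-labelled and WT-labelled members on high fat diet (0.39), so neither passed 2-fold. Il1rn, which blocks the interleukin 1 receptor, was at 226 CPM in DTR-labelled and 13.4 in WT-labelled members on normal diet (4.08, 3.23 to 5.09), and at 88.3 and 34.8 CPM in DTR-labelled and WT-labelled members on high fat diet (1.34, 0.81 to 1.92).

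5 further lists were read against the same shares between genotypes: over all genes 7.06% were higher and 3.94% lower on normal diet, and 9.13% and 3.74% on high fat diet. Complement and coagulation genes had 6 of 11 higher and none lower on normal diet, and 5 of 11 higher and 1 lower on high fat diet. Hypoxia and glycolysis genes had 2 of 16 higher and none lower on normal diet, and 3 of 17 higher and 1 lower on high fat diet, the lower one being Hk2, a hexokinase (−1.14). Hk2 turned to 1.61 in filtered members and to 0.90 under the stricter limit on other lineages. It was also higher in filtered Ace-sum (0.84) and filtered Plac8-sum members (2.21). MHC class I genes had none of 15 past 2-fold on normal diet and none of 14 on high fat diet. Survival and apoptosis genes had 1 of 16 higher and 1 lower on normal diet, and 2 of 16 higher and 1 lower on high fat diet. The lower one was Bcl2, which blocks apoptosis, at −1.60 and −1.47. None of 9 cell cycle genes passed on normal diet, and on high fat diet none of 11 was higher and 1 was lower, Hmgb2, a chromatin protein of dividing cells (−1.12). Hmgb2 turned to 0.26 under the stricter limit on other lineages. Mitochondrially encoded genes, a sign of RNA quality, had medians of 0.04 and −0.26 on normal and high fat diet, and genes induced by tissue dissociation 0.02 and 0.44.

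Between diets, fewer genes passed. In DTR-labelled members 495 of 7133 genes (6.94%) differed at least 2-fold, 395 (5.54%) higher and 100 (1.4%) lower on high fat diet. In WT-labelled members 217 of 4305 (5.04%) did, 174 (4.04%) higher and 43 (0.999%) lower. Fibroblast marker genes were among the higher ones, with 5 of 9 in DTR-labelled and 7 of 9 in WT-labelled members. The same comparisons in filtered members gave 3.37% and 4.39% of genes past 2-fold. Fibroblast RNA was still among the higher genes there. In filtered DTR-labelled members Col1a1 had the highest ratio, with 93 UMIs on high fat and 11 on normal diet (3.22), and Col1a2 had 126 and 22 (2.66).

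Chemokine genes were higher on high fat diet within DTR-labelled members. There 6 of 16 were at least 2-fold higher and 2 lower (median 0.75), against 5.54% and 1.4% of all genes. In filtered DTR-labelled members 7 of 15 were higher and 1 lower (median 0.94), against 2.07% and 1.3% of all genes. Ccl2 was at 1473 CPM on high fat and 652 on normal diet in DTR-labelled members (1.17, 1.09 to 1.26), and at 267 CPM on both diets in WT-labelled members. In the WT-labelled normal diet library 1 cell held much of the Ccl2 RNA, as given above. In filtered WT-labelled members Ccl2 was higher on high fat diet, with 108 UMIs against 23 on normal diet (2.05, 1.39 to 2.76). Ccl12 was at 408 CPM on high fat and 72 on normal diet in DTR-labelled members (2.50, 2.27 to 2.75), and Ccl3 at 181 on high fat and 55.8 on normal diet (1.70). Arg1 was at 129 CPM on high fat and 18.3 on normal diet in DTR-labelled members (2.82). Filtered Plac8-sum DTR-labelled members held 680 Ccl12 UMIs on high fat and 142 on normal diet, whereas filtered Ace-sum DTR-labelled members held 3 on high fat and 5 on normal diet.

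Interferon genes tended to lower values on high fat diet in DTR-labelled members, though only 1 of 40 passed 2-fold (median −0.59). In filtered Ace-sum DTR-labelled members 8 of 22 were at least 2-fold lower (median −0.85, 2.35% of all genes), with Rsad2 at 25.2 CPM on high fat and 346 on normal diet (−3.78, −5.42 to −2.53), and 34.2% of the normal diet UMIs in 1 cell. Interferon gamma response genes had 7 of 15 at least 2-fold lower on high fat diet in DTR-labelled members (median −0.76), against 1.4% lower over all genes. Gbp2, a guanylate-binding protein that acts against microbes inside cells, was at 29.9 CPM on high fat and 100 on normal diet in DTR-labelled members (−1.75), and at 25.3 and 76.6 CPM on high fat and normal diet in WT-labelled members (−1.60). None of the 16 interferon response genes measured in WT-labelled members passed 2-fold between diets (median −0.11).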

How the data were processed

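The 32 sample records differ within a group only in sample index and lane and were taken as runs of 1 library per group. The deposited matrix holds raw UMI counts for 31053 genes and 22703 barcodes, made with Cell Ranger 3.1.0 against mm10 per the submitters' processing notes. Whether libraries were subsampled on pooling is not stated. Barcode endings 1 to 4 were taken as the entries of the submitters' aggregation list, in its sequence.

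Barcodes under 300 genes or over 10% mitochondrial UMIs were dropped (13.8%), and the rule was applied to the raw counts of the rest. A cell was immune when its UMIs of Ptprc, Laptm5, Coro1a, Cd52 and Rac2 exceeded those of Sparc, Igfbp7, Col4a1, Cald1 and Gsn. Scrublet, run in scanpy 1.11.5 on each library, marked 0.69% to 1.37% of cells as doublets, which were removed only as an alternative. UMIs were summed over the members of a library and divided by their total (CPM). Genes with at least 50 UMIs over the 2 libraries were measured, and a ratio of at least 2-fold was called; a library with 0 UMIs was set to a floor of 3 UMIs, giving a bound. Ratios have conditional exact binomial intervals, levels exact Poisson intervals and shares exact Clopper-Pearson intervals, at 95%. Groups have 1 library each, so nothing was tested. Alternatives were stricter cell filters, doublet removal, thinning to 3000 UMIs, limits on other-lineage UMIs, other denominators, size factors, gene minimums and each kind of member alone. The scripts were tested on simulated data. The work used Python 3.11.15, numpy 2.4.6, scipy 1.17.1 and pandas 2.3.3, and R 4.3.3 with edgeR 4.0.16 and DESeq2 1.42.0 for the alternative size factors only.

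The members, the 34 gene lists and the filter on other-type RNA were chosen with earlier results of these data known. Named genes were, per comparison, the 8 highest and 8 lowest ratios; per list, the 4 members of most UMIs and the 2 of largest ratio; per kind of member, the 10 with the largest ratio in their smallest library; and Siglec1, Ccr2, Cx3cr1, Nr4a1, Spn, Csf1r and 1 gene that is not reported here. The 15 genes of the rule were kept out of these results.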

Additional observations from a re-analysis of the deposited data

Results flagged for a closer look

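Of 5708 genes measured on both diets, 9 were at least 2-fold apart between DTR-labelled and WT-labelled members in opposite directions on the 2 diets, and the naming rule covered 4 of them, which are given here; the difference between diets was not tested. Jchain, the joining chain of secreted antibodies, had a log2 ratio of 7.42 on normal diet and −10.33 on high fat diet, Igkc, the kappa light chain, 5.20 and −7.31, and Ighm, the IgM heavy chain, 3.44 and −5.50. In the libraries where they were high, 1 cell held 72.2% (DTR-labelled, normal diet) and 83.1% (WT-labelled, high fat diet) of the Jchain UMIs, 43.6% and 92.5% of the Igkc UMIs, and 49.8% and 87% of the Ighm UMIs, in the same order of libraries. In filtered members Jchain held 4 UMIs in DTR-labelled and 1 in WT-labelled cells on normal diet, and 1 in each on high fat diet. Hspb1, a small heat shock protein, had log2 ratios of −1.58 on normal and 2.16 on high fat diet, and 1 cell held 37.8% of its UMIs in the DTR-labelled high fat diet library and 49% in the WT-labelled normal diet library.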

How the results depend on the processing

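Each group has 1 library, so no replicate could be left out, and no paired analysis was possible because each group has 1 library. Depth limits the filtered WT-labelled members of normal diet most, with 7 Plac8-sum cells. Of the comparison-level values recomputed under the alternatives, 66 stayed close to the main value and 38 moved. Close meant within the main interval for shares, and near the main count for gene counts. Of the gene and list values, 2595 were counted as the same, 349 as moved and 38 as changed in direction. A log2 ratio counted as the same when it stayed past or under 2-fold, so its size could still differ. A change of direction was counted only from a main ratio of at least 2-fold, so turns of smaller ratios are left out. Except where said below, the cause was not tested.

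The log2 ratio of the members' share of immune cells (1.92 on normal and 1.76 on high fat diet) was 2.31 and 2.28 with cells thinned to 3000 UMIs, and 1.23 and 0.79 with the planned limit of 3 UMIs on other lineages, whose lists include Bst2 and Gsn, genes that monocytes can express. High fat over normal diet in DTR-labelled libraries (−0.29) was −0.73 under that limit and −0.66 over Lyz2-positive cells in place of immune cells. The Ace-sum share of members was 20.5% in the DTR-labelled normal diet and 10.2% in the DTR-labelled high fat diet library after thinning, 44.9%, 91.3% and 28.4% under the planned limit (DTR-labelled normal diet, WT-labelled normal diet and DTR-labelled high fat diet) and 89.2% in filtered WT-labelled members on normal diet.

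The counts of genes past 2-fold (656 and 812 for DTR over WT on normal and high fat diet, 495 and 217 for high fat over normal diet in DTR-labelled and WT-labelled members) were, in that order, 289, 150, 77 and 55 under the planned limit, 1243, 1460, 1013 and 627 with a minimum of 20 UMIs and 2080, 2347, 2008 and 1765 with 1 UMI in each library. They were 218, 64, 69 and 32 in filtered Ace-sum members, where fewer genes were measured, and 259, 336 and 314 for the first 3 in all Ace-sum members. Filtered members gave 181 and 82 between diets in DTR-labelled and WT-labelled cells, and filtered Plac8-sum members gave 514 for DTR over WT on high fat diet and 176 and 41 between diets. High fat over normal diet in WT-labelled members gave 86 after thinning and 125 in Plac8-sum members. The share of passing genes that were higher was 64.2%, 70.9%, 79.8% and 80.2%. TMM scaling made it 74.3% on normal diet and 57% between diets in DTR-labelled members, DESeq2 size factors 56.7% on high fat diet and 59.3% between diets in DTR-labelled members, and equal weight per cell 56.4% on high fat diet. The median of all genes on high fat diet was 0.18, and 0.05 with DESeq2 size factors; between diets in DTR-labelled members it was 0.13, and −0.05 with TMM and −0.03 with DESeq2 factors.

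The interferon medians were 0.94 and 0.42 on normal and high fat diet under the planned limit and 0.96 on high fat diet after thinning, and the chemokine medians for DTR over WT were at least 1.13 on both diets in every alternative run. Among log2 ratios of at least 2-fold in the main run, directions changed for these, and for Hk2 and Hmgb2 on high fat diet as given with their lists. For DTR over WT on normal diet, thinning gave Hspb1 0.02, Igkc −0.29 and Ighm −0.57. The planned limit gave Cxcl10 −1.16, Igkc −0.58 and Ighm −1.01. Filtered members gave Igkc −1.81, Jchain −0.31 and Ighm −0.73. All Ace-sum members gave Ccl2 −1.28, and filtered ones Igkc −1.68 and Ighm −0.75. Filtered Plac8-sum members gave Cxcl10 −0.86, Klf2 0.17, Ccr2 −0.14, Igkc −1.08 and Ighm −0.95. On high fat diet the planned limit gave Cxcl10 −3.39 and Ccl3 −0.48, Plac8-sum members gave Eno3 0.52, and Ace-sum members gave Eno3 0.03 and Arg1 −0.91. Filtered Ace-sum members gave Rsad2 −0.69, Cxcl10 −1.97, Ccl7 −0.01 and a macrophage differentiation median of −0.13 there. For high fat over normal diet, filtered Ace-sum DTR-labelled members gave Ccl7 −0.77 and Pf4 −0.15. In WT-labelled members the planned limit gave Igkc −0.29 and Ighm −0.35, filtered members Igkc −1.15 and Ighm −0.39, filtered Ace-sum members Gbp2 0.14, Igkc −1.32 and Ighm −0.48, and filtered Plac8-sum members Fn1 −0.65, Igkc −0.24 and Ighm −0.46.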
